A study of Mus musculus with 8 samples.

Results

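Cytosolic ribosomal protein genes encode the protein components of the 80S ribosome, and the liver table held 90 rows for them among 22013 genes. Members were taken by symbol: Rpl or Rps followed by a digit, together with Rplp0, Rplp1, Rplp2 and Rpsa. Symbols that contain -ps, a mark for pseudogenes, and the Rps6k kinases were left out. Of the rows left out, Rpl10-ps3, Rpl9-ps6 and Rps18-ps6 are nonetheless annotated in GENCODE as protein coding. The 90 rows kept comprised 54 large subunit symbols and 36 small subunit symbols. By symbol alone the rule also takes Rps19bp1, which encodes a protein that binds Rps19, and the related rows Rpl7l1 and Rps4l, of which Rps4l is annotated in GENCODE as a transcribed processed pseudogene. Of the 90 rows, 83 passed the filter on low counts and were tested.

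A ribosome carries a single copy of most of its proteins, and the genes are transcribed at high and balanced levels. Their mRNAs begin with a run of pyrimidines (the TOP motif) that ties their translation to the kinase complex mTORC1 through the repressor Larp1. Hepatocytes make large amounts of secreted protein and hold many ribosomes. These mRNAs are short, and an mRNA level says nothing by itself of how much ribosomal protein is made.

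Libraries of poly(A)-selected liver RNA formed 2 groups of mice, 4 libraries labelled resmetirom and 4 labelled control. Resmetirom is an oral liver-directed agonist of the thyroid hormone receptor beta, given here by intraperitoneal injection at 5 mg/kg/day for 8 weeks, beginning after 4 weeks of a diet with fructose, palmitate and cholesterol that lasted 12 weeks in all. The vehicle was 0.5% CMC-Na with 0.4% Tween-80, and the labels state neither the diet nor the vehicle of the control libraries. The labels give no strain, sex or age, and nothing in them ties a library to its own animal, so the p-values reflect library-to-library spread, which may be technical.

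Total counts were 16787561 to 19887539 per library, and tested members had 86 to 10672 counts in a library. Levels are CPM, that is counts scaled to library size and to the TMM factors, which set aside strongly shifted abundant genes, or TPM, which divide by gene length and sum to the same total in every library. The 22 rows of Mup genes, which encode abundant secreted urinary proteins, held 7.54%, 20.1%, 25.1% and 17.8% of the counts in resmetirom libraries 1 to 4, against 7.05%, 5.77%, 4.32% and 5.33% in control libraries 1 to 4. TMM factors were 1.06, 0.867, 0.804 and 0.879 in resmetirom libraries and 1.08 to 1.16 in control libraries. Hepatocyte markers summed to 102700 to 108600 CPM in resmetirom libraries and 78350 to 90330 CPM in control libraries, with 3 of 9 called higher (Ahsg, Cps1 and Serpina1a) and none at 0 counts. Of the markers of other cells, 1 of 9 tested lymphocyte and plasma cell markers rose (Jchain), and 1 of 10 stellate cell markers (Col3a1) and 1 of 5 erythroid markers (Alas2) fell, while the other 4 erythroid markers had positive log2 fold changes. Median log2 fold changes were 0.355 over 9 hepatocyte markers (8 positive) and 0.96 over 9 lymphocyte and plasma cell markers (8 positive). In either list 5 markers were higher and 0 lower at an unadjusted p under 0.05. Over 10 stellate cell markers the median was -0.21 (2 positive, 2 lower at that p). No Kupffer cell, endothelial or cholangiocyte marker passed the test. The median log2 fold change was -0.12 over 12 Kupffer cell markers (3 positive), -0.36 over 10 endothelial markers (0 positive, 4 lower at an unadjusted p under 0.05) and 0.67 over 5 cholangiocyte markers (4 positive). The smallest p in these lists was that of Marco (1.79), Tek (-0.40) and Sox9 (-1.38), of which Marco and Sox9 ran against the sign of their list's median. The part of these shifts in the values below was not tested, and in bulk tissue fewer cells of a type and less RNA per cell cannot be told apart.

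Promoters of 5 members that the results turn on are printed as 100 bases before and 25 bases after the RefSeq start on GRCm38.p6, read along the gene. Capitals mark matches to the searched motifs: the TATA box TATAAA, the ETS motif CCGGAAG and the SP1 motif GGGCGG on both strands, where overlapping matches run together, and a pyrimidine run CTTTC on the gene strand near the start. Rpl22l1 and its partner Rpl22 are shown as a paralog pair, and Rpl41, Rpl36a and Rpl34 as called members.
Rpl22l1, chr3:28805408-28805532, plus strand: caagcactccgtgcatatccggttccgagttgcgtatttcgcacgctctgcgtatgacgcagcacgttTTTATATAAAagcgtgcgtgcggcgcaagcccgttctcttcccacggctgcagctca
Rpl22, chr4:152325626-152325750, plus strand: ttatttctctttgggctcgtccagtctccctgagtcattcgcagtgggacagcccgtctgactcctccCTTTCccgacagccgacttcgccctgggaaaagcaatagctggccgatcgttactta
Rpl41, chr10:128549144-128549268, minus strand: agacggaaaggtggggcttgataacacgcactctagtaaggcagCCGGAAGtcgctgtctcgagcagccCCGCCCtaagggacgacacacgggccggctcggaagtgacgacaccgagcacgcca
Rpl36a, chrX:134585554-134585678, plus strand: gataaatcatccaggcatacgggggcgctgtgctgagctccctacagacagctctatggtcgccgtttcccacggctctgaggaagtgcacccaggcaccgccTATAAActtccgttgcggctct
Rpl34, chr3:130730374-130730498, minus strand: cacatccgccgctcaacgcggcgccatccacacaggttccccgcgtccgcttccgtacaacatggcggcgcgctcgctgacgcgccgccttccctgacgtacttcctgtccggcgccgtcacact
The RefSeq and GENCODE starts of Rpl36a and Rpl34 coincide, while those of Rpl22l1, Rpl22 and Rpl41 lie 72, 16 and 137 bases apart. For Rpl22l1 and Rpl41 the GENCODE start is the upstream one, so the letters marked there fall within the gene as GENCODE annotates it. For Rpl22 the GENCODE start is the downstream one.

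RefSeq promoters of 300 bases were found for 67 members, in 79 windows, among 32851 windows of all genes. The ETS motif stood in 34.2% of member windows and 8.86% of all windows, and AAGATGG, the YY1 motif, in 15.2% and 6.34%. GGGCGG stood in 59.5% of member windows and 35.7% of all windows, and CACGTG, the E-box, in 10.1% and 7.15%. TATAAA was found in 8.86% of member windows and 13.6% of all windows, so the TATA letters shown for Rpl22l1 and Rpl36a are found in a minority of the family. These letters stand before the RefSeq start in Rpl22l1 but after it in Rpl36a, which is not the place of a TATA box. CTTTC or CTTTT within 50 bases to either side of the start, on the gene strand, stood in 60.8% of member windows and 21.8% of all windows. These shares include letters before the start, which are not part of the mRNA, so they do not count TOP motifs. The run marked in Rpl22 stands before both its RefSeq and its GENCODE start. A match describes letters and is not a bound site.

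In resmetirom livers 5 ribosomal protein genes rose against control livers and none fell, in edgeR's quasi-likelihood test with TMM factors and Benjamini-Hochberg adjustment over 12207 genes at a threshold of 0.05. The 5 were Rpl22l1, Rpl36a, Rpl36, Rpl41 and Rpl34, all of the large subunit, and over all genes 2.6% were called higher and 1.99% lower. At an unadjusted p under 0.05, 58 members were higher and 0 lower, against 9.48% of all genes higher. The fitted log2 fold change was above 0 for 82 of 83 members, against 49.3% of all genes. Its median over the members was 0.28, within a range of -0.10 to 0.80, and the median over all genes was 0.00 (-0.00434). The CPM of the groups did not overlap, with resmetirom higher, for 15 members (6.32% of all genes), and for 0 members with resmetirom lower (5.51% of all genes).

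**Figure D1:**
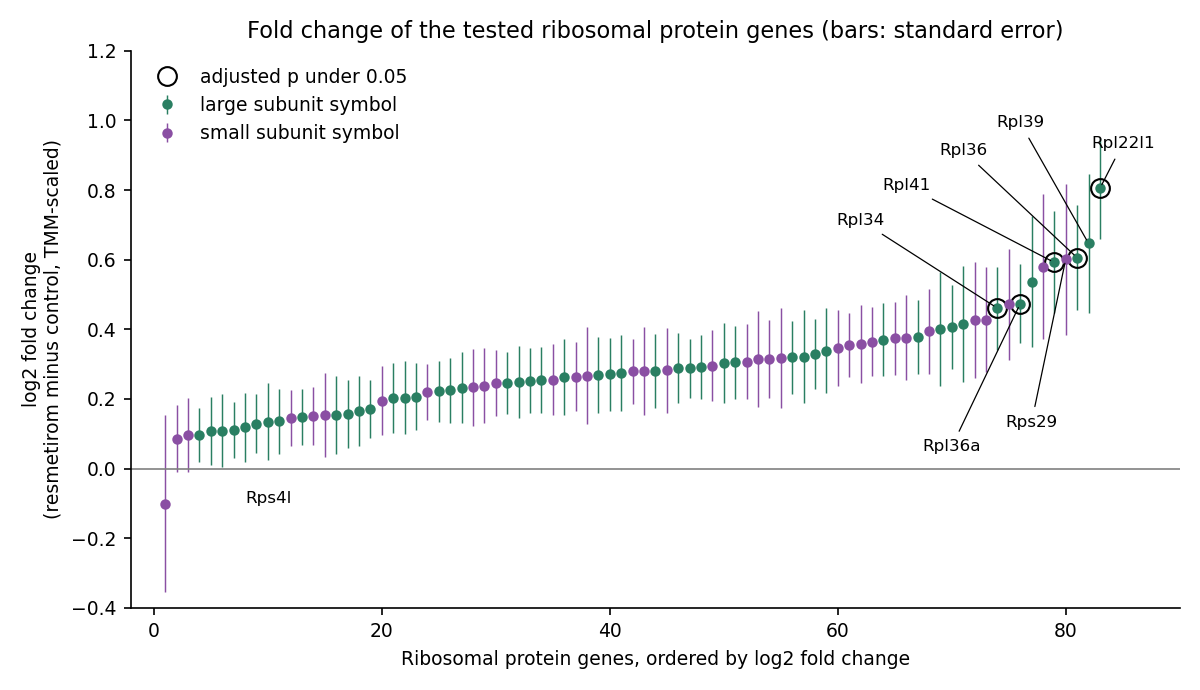
Fitted log2 fold change (resmetirom minus control, vertical axis) of the 83 tested ribosomal protein genes in ascending order (horizontal axis), with standard errors as bars, colours for subunit symbols and rings for the 5 called genes. Rps4l is the 1 member below 0 and Rpl22l1 the highest, at 0.80.

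The size and sign of the family's shift depended on the scale. With library sizes in place of TMM factors the members' median was -0.02 and none was called (1.24% of all genes were called higher and 16.1% lower), while the median of all genes was -0.31. With log2(TPM + 1) the members' median was -0.23 and the median of all genes -0.41, and 1 member, Rpl5, was called lower (1.04% of all genes were called higher and 38% lower). In each of these scales the members' median lay above that of all genes. In the authors' deposited table, 0 members were higher and 3 lower (Rpl4, Rpl7a and Rps6) at a false discovery rate under 0.05, against 0.863% and 23.6% of all its genes, and the members' median log2 fold change was -0.20. With DESeq2 in place of edgeR, 13 members were called higher and 0 lower (3.85% and 2.85% of all genes), among them the small subunit genes Rps9, Rps13 and Rps14. Rps14 was also called with RLE factors, with TMM factors computed without Mup genes and with limma-voom. Directions below are therefore those of TMM-scaled CPM, relative to the bulk of genes.

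Ribosomal protein genes took 1.85%, 1.24%, 1.21% and 1.42% of counts in resmetirom libraries 1 to 4, against 1.40%, 1.40%, 1.68% and 1.44% in control libraries. The means were 1.43% ± 0.296 in resmetirom livers and 1.48% ± 0.133 in control livers (SD, n = 4 each), so the groups overlapped widely. Of the counts left after the Mup genes were removed, the family took 2.0%, 1.55%, 1.61% and 1.73% in resmetirom libraries, against 1.51%, 1.49%, 1.75% and 1.52% in control libraries. Without Mup genes the resmetirom libraries lay above all control libraries other than control 3. Wilson 95% intervals of the shares were at most 0.0064 percentage points to either side, which covers counting error only.

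**Figure D2:**
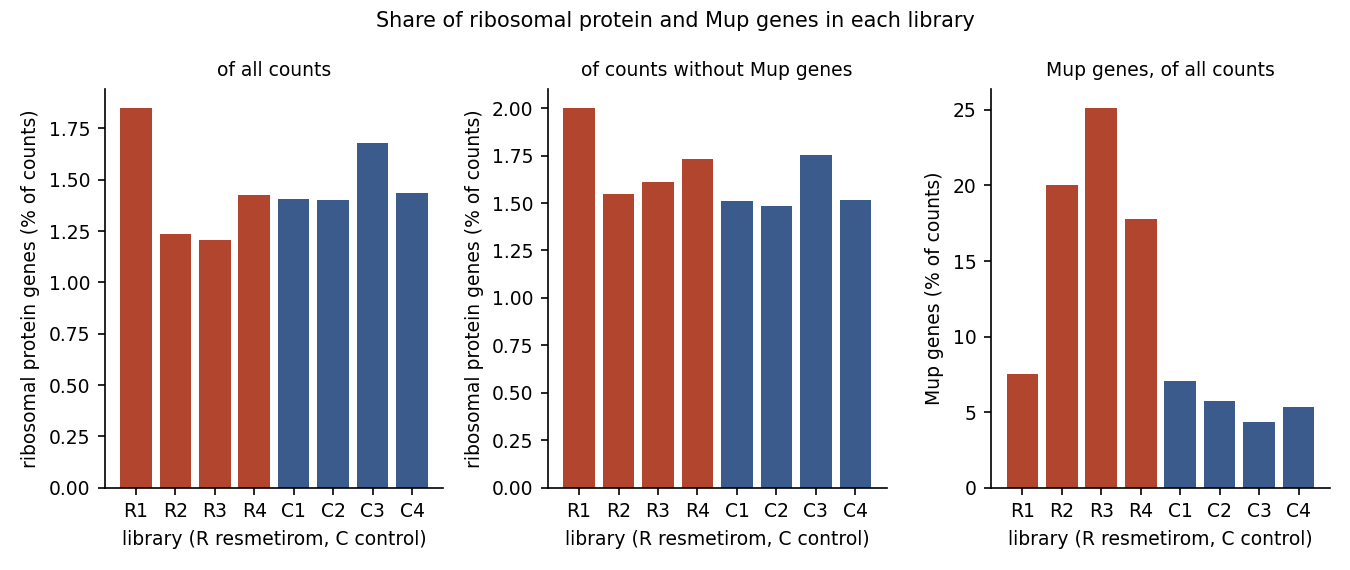
Bars give, for each resmetirom library (R1 to R4) and control library (C1 to C4), the percentage of counts in ribosomal protein genes, the same after removing Mup genes, and the percentage in Mup genes. Resmetirom library 1 has the highest ribosomal share (1.85%) and, at 7.54%, the lowest Mup share of its group.

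The libraries contributed unequally. Resmetirom 1 was the highest of all 8 libraries for 70 of the 83 members, and resmetirom 2 the lowest of its group for 67. The members' median log2 deviation from their mean over all libraries was 0.31, -0.01, 0.07 and 0.18 in resmetirom libraries 1 to 4, against -0.16, -0.20, 0.04 and -0.24 in control libraries. Without resmetirom 1 the members' median fold change was 0.21 and 1 member was called higher (2.31% of all genes). Without control 3 it was 0.335, and 9 were called higher (1.95% of all genes).

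Rpl22l1 (ENSMUSG00000039221, chromosome 3, 28805436 to 28807424, plus strand, GRCm38) had the highest fold change. It encodes a paralog of the large subunit protein Rpl22, and in mouse cells Rpl22 is known to hold down Rpl22l1. Rpl22l1 had 36.7, 33.6, 29.9 and 25.1 CPM in resmetirom livers, against 15.03, 16.97, 21.5 and 18.2 CPM in control livers. All resmetirom libraries lay above all control libraries. The log2 fold change was 0.80 (SE 0.14, edgeR quasi-likelihood adjusted p = 0.00655). Rpl22l1 was called without any 1 of the 8 libraries, at adjusted p values of 0.00602 to 0.0271. It was not called with library sizes alone (log2 fold change 0.51, adjusted p = 0.0717), on log2(TPM + 1) (0.29, adjusted p = 0.239), or with the length correction described below (0.55, adjusted p = 0.0741).

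Rpl36a (ENSMUSG00000079435, chromosome X, 134585654 to 134588062), a protein of the tRNA exit site, had 104, 78.6, 82.8 and 89.1 CPM in resmetirom livers, against 64.3, 58.9, 74.1 and 58.5 CPM in control livers. The groups did not overlap, and the log2 fold change was 0.47 (SE 0.11, edgeR adjusted p = 0.0355). Rpl41 (ENSMUSG00000093674, chromosome 10, 128548114 to 128549305), the smallest ribosomal protein, had 289, 191.8, 244 and 236 CPM in resmetirom livers, against 169, 153, 191.7 and 124 CPM in control livers. Resmetirom 2 and control 3 were nearly level, and the others stood apart (log2 fold change 0.59, SE 0.15, edgeR adjusted p = 0.0440).

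Rpl36 (ENSMUSG00000057863, chromosome 17, 56613416 to 56614243), of the large subunit, had 47.2, 31.9, 37.1 and 42.7 CPM in resmetirom livers, against 25.7, 25.9, 32.1 and 20.8 CPM in control livers. Control 3 just exceeded resmetirom 2. Its log2 fold change was 0.61 (SE 0.15, edgeR adjusted p = 0.0425). Rpl34 (ENSMUSG00000062006, chromosome 3, 130726831 to 130730398), also of the large subunit, had 122, 89.2, 104 and 106 CPM in resmetirom livers, against 78.2, 68.2, 90.4 and 69.5 CPM in control livers. Here too control 3 lay just above resmetirom 2 (log2 fold change 0.46, SE 0.12, edgeR adjusted p = 0.0494). None of these 4 was called without any 1 of control 1, control 2, control 4, resmetirom 1 and resmetirom 4, and of the 4 only Rpl36a was called without resmetirom 3. Rpl22l1 was then the 1 called member, other than without control 1, where Rps29 was called too, and without resmetirom 3, where Rpl36a and Rps13 were called too. On TPM the log2 fold changes of Rpl36a and Rpl34 were -0.03 and -0.04.

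**Figure D3:**
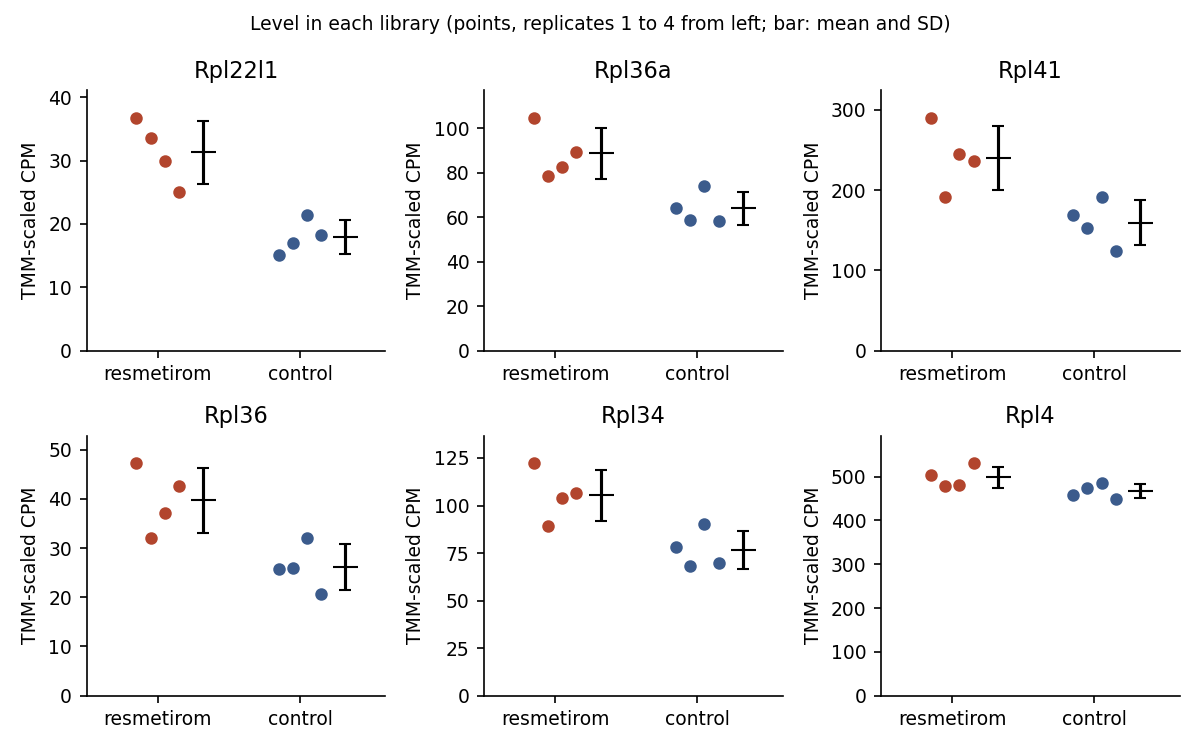
CPM scaled by TMM factors (vertical axes, from 0) in each library of the 5 called genes and of Rpl4, with resmetirom points left of control points and bars for the mean and SD. Rpl22l1 shows the clearest gap, and Rpl4 has overlapping groups.

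Among the other members with a high fold change, Rpl39, a small protein at the wall of the peptide exit tunnel, had 56.6, 34.8, 46.8 and 45.2 CPM in resmetirom livers, against 36.0, 23.0, 36.2 and 21.9 CPM in control livers. Its groups overlapped through resmetirom 2, and the log2 fold change of 0.65 missed the threshold (edgeR adjusted p = 0.110). Rps29, a small zinc-binding protein of the small subunit, had 24.7, 14.5, 23.0 and 16.3 CPM in resmetirom livers, against 18.1, 10.9, 12.5 and 10.3 CPM in control livers (log2 fold change 0.60, edgeR adjusted p = 0.165). Rps28, another small protein of the small subunit, had 16.7, 9.997, 15.5 and 13.95 CPM in resmetirom livers, against 12.5, 7.40, 10.4 and 7.31 CPM in control livers (log2 fold change 0.58, edgeR adjusted p = 0.160). Rps14, a small subunit protein whose loss marks a human anaemia, had 338, 284, 293 and 302 CPM in resmetirom livers, against 227, 229.7, 270.3 and 224 CPM in control livers. Its groups did not overlap and its adjusted p was 0.0503, at a log2 fold change of 0.36.

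At the low end, Rps4l, the pseudogene row related to Rps4x, had 10.5, 9.87, 5.72 and 10.3 CPM in resmetirom livers, against 10.4, 14.2, 7.04 and 7.46 CPM in control livers. Its groups overlapped, with a log2 fold change of -0.10 (SE 0.25, edgeR adjusted p = 0.896). Rps6, the small subunit target of S6 kinase, had 451, 379, 389.8 and 457 CPM in resmetirom livers, against 379, 397, 437 and 366 CPM in control livers. Rps23, at the decoding centre, had 156, 120.4, 137 and 151 CPM in resmetirom livers, against 121, 127, 153 and 128 CPM in control livers. Both overlapped between groups, at log2 fold changes of 0.09 and 0.10. Rpl4, which lines the exit tunnel, had 504, 479, 480.4 and 530.0 CPM in resmetirom livers, against 457, 474, 485 and 449 CPM in control livers. Rpl14, of the large subunit surface, had 191, 149, 156 and 186 CPM in resmetirom livers, against 156, 159, 169 and 149.5 CPM in control livers. Their log2 fold changes were 0.10 and 0.11, with overlapping groups.

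Rpl10, which joins the large subunit late in its assembly, had 116, 100.4, 127 and 111 CPM in resmetirom livers, against 107, 94.98, 122 and 98.7 CPM in control livers. Its value is uncertain, since Rpl10-ps3 took most of the counts of the pair, and Rpl10 held 24.1% to 29.7% of their sum in resmetirom libraries and 24.1% to 29.2% in control libraries. The pair together had 474, 388, 429 and 462 CPM in resmetirom livers, against 393, 395, 417 and 361 CPM in control livers. The sources used here do not state how reads shared between copies were counted, so the split between near-identical copies, Rpl36a and Rpl36al among them, is uncertain too.

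The ribosomal stalk, which recruits elongation factors, consists of Rplp0, Rplp1 and Rplp2. Rplp0 had 481, 367, 429 and 442 CPM in resmetirom livers, against 391, 368, 387 and 342 CPM in control livers. Rplp1 had 172, 129, 140.1 and 175 CPM in resmetirom livers, against 116, 115, 145 and 111 CPM in control livers. Rplp2 had 67.9, 45.8, 51.9 and 58.3 CPM in resmetirom livers, against 44.2, 38.2, 52.2 and 44.6 CPM in control livers. All 3 had overlapping groups and none was called, with log2 fold changes of 0.21, 0.34 and 0.32. Rpl5 and Rpl11 carry the 5S rRNA into the large subunit and, when free, bind Mdm2. Rpl5 had 363, 357, 331 and 375 CPM in resmetirom livers, against 309, 316, 350.2 and 313 CPM in control livers. Rpl11 had 247, 204, 206 and 231 CPM in resmetirom livers, against 176, 177, 205 and 187 CPM in control livers. For both, only control 3 reached into the range of the resmetirom libraries, and neither was called (edgeR adjusted p = 0.388 for Rpl5 and 0.165 for Rpl11). Rpsa, of the small subunit and also described as a laminin receptor, had 482, 445, 441 and 477 CPM in resmetirom livers, against 394, 425, 392 and 374 CPM in control livers, which did not overlap (log2 fold change 0.22, edgeR adjusted p = 0.161).

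The 49 tested large subunit symbols had a median log2 fold change of 0.27 and the 34 small subunit symbols 0.29. The ratio of their summed TPM was 1.32 ± 0.0197 in resmetirom livers and 1.31 ± 0.0208 in control livers (SD, n = 4 each), a difference smaller than the spread. Without Rps19bp1, Rps4l and Rpl7l1, a set chosen after values were seen, the median was 0.28. A list of 10 members whose human counterparts are mutated in Diamond-Blackfan anaemia, an inherited failure of red cell production, which leaves out other genes of that disease such as Rps28 and Rps29, had a median of 0.28 with 0 called.

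Per length, the tested members spanned a 67-fold range of mean TPM over the 8 libraries, with a median of 334 TPM. Rps4l, the pseudogene row, was lowest at 9.27 ± 3.47 TPM in resmetirom livers and 13.5 ± 4.12 TPM in control livers, and sets the low end of that range. Next came Rps19bp1, Rpl7l1 and Rps28, at mean TPM of 17.4, 45.0 and 49.7 over the 8 libraries. Apart from Rps4l, Rps19bp1 and Rpl7l1, the lowest member was thus Rps28. Rps2, a small subunit protein at the mRNA entry, was highest at 676 ± 153 TPM in resmetirom livers and 853 ± 25.1 TPM in control livers (SD, n = 4 each here and below). Rps6 followed at 639 ± 164 TPM in resmetirom livers and 839 ± 79.0 TPM in control livers. Rps3a1, an early-binding small subunit protein, had 636 ± 139.5 TPM in resmetirom livers and 802 ± 74.7 TPM in control livers. Rps14 had 684 ± 182 TPM in resmetirom livers and 745 ± 84.0 TPM in control livers. Rpl23a, beside the exit of the peptide tunnel, had 655 ± 202 TPM in resmetirom livers and 754 ± 104 TPM in control livers. These neighbours in the order differed by less than their SDs, and 73 members lay above 100 TPM.

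On TMM-scaled CPM, Rps2 had 530.4, 478.2, 484 and 531 in resmetirom livers, against 477.6, 461, 466 and 427 in control livers, which were close but did not overlap. Rps3a1 had 479.7, 447, 436 and 499 CPM in resmetirom livers, against 395, 417, 457 and 408 CPM in control livers. Rpl23a had 317, 235, 258 and 279 CPM in resmetirom livers, against 212, 209.6, 262 and 220.2 CPM in control livers. Control 3 overlapped the resmetirom libraries for Rps3a1 and Rpl23a, and none of the 3 was called. Between libraries of 1 group the members' median SD was 0.15 log2 units, against 0.24 over all tested genes with counts in every library. The most variable were Rps4l, Rps29, Rps28, Rpl39 and Rpl38, and Rpl4 was the least.

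Short members had the higher fold changes. Log2 length and log2 fold change correlated across the 83 members at Pearson r = -0.48 and Spearman rho = -0.54, a description over genes that share the same 8 libraries and are not independent. The same pattern held among all 12207 genes at r = -0.10 and rho = -0.16. Below 600 bases, a limit chosen after values were seen, the median log2 fold change was 0.355 for 27 members and 0.358 for all 148 tested genes of that length, and the 5 called members were all in this class, in which 26 genes were called higher. From 600 to below 900 bases the medians were 0.27 for 30 members and 0.17 for 460 genes. From 900 to below 1500 bases they were 0.21 for 21 members and 0.05 for 1560 genes. Among longer genes, 4 members of 1500 to below 3000 bases had a median of 0.18 against -0.01 for 4586 genes. The 1 member above that, Rps20, is listed at 3706 bases and had 0.39.

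Length also ordered the members within each group. The deviation of a member from its group mean correlated with log2 length at r = 0.52 in resmetirom 2 and -0.39 in resmetirom 1. In control 2 it was 0.49 and in control 3 -0.47. Deviations from a group mean cancel over its libraries, so the opposite signs follow from the calculation and only the sizes are informative. Leaving out 1 library at a time moved the fold change correlation between r = -0.39 and -0.54. After a smooth trend of each library against length was entered as an offset, an alternative added after the data were seen, the correlation was 0.14 and the members' median log2 fold change 0.10. The trend was fitted over all tested genes, the members among them, and takes in any group difference that follows length. Loss of the slope is thus built into this fit and is not a separate finding. Of the 83 members, 70 stayed above 0 and 0 were called, against 2.38% of all genes called higher and 1.93% lower in that fit. Rpl22l1 (0.55), Rps20 (0.44) and Rpl39 (0.43) then had the highest log2 fold changes. The place of Rps20 rests on its listed length of 3706 bases, and a listed length may differ from that of the expressed mRNA.

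**Figure D4:**
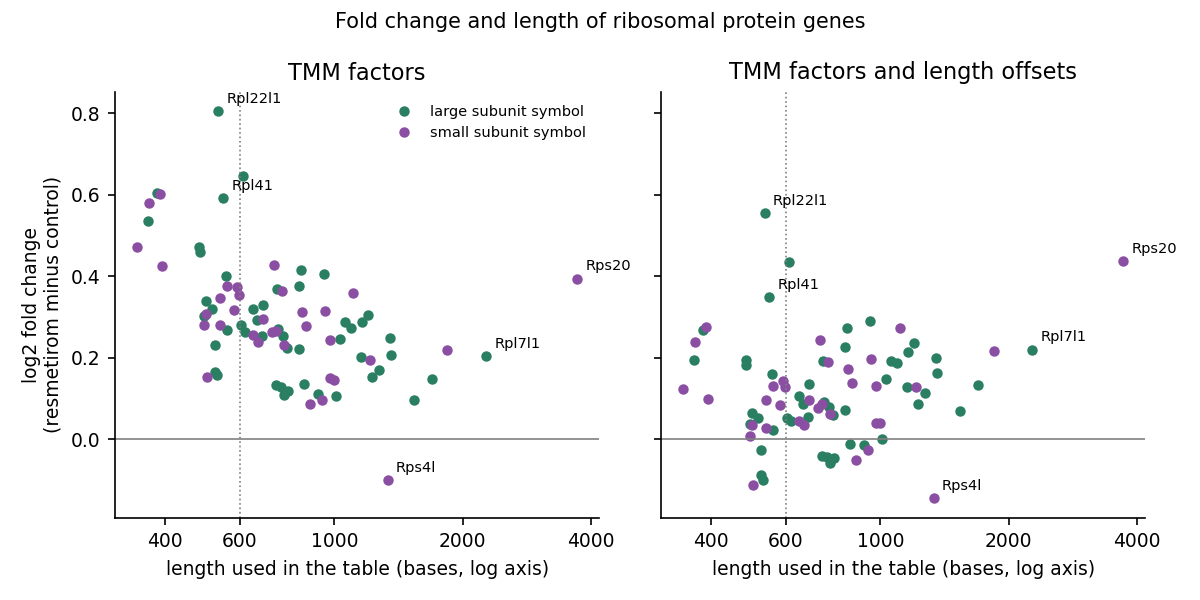
Log2 fold change of the 83 tested members (vertical axis) against the gene length that the deposited TPM imply (horizontal log axis, in bases), with TMM factors on the left and with added length offsets on the right. The slope seen on the left, at r = -0.48, is not seen on the right, at r = 0.14. The offsets take out a trend with length by construction.

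Paralog pairs were compared within each library by the ratio of their TPM, which no scaling factor changes. Rpl22l1 stood at 29.6%, 32.8%, 28.2% and 21.2% of Rpl22 in resmetirom livers, against 15.1%, 17.4%, 18.8% and 20.9% in control livers. All resmetirom libraries lay above all control libraries, the closest being resmetirom 4 and control 4. The log2 difference was 0.62 (2-sided exact permutation p = 0.0286, which is the smallest that 4 against 4 libraries allow, and 0.0715 adjusted over 5 pairs). The lengths of both genes in the table are close, at 535 and 526 bases. Rpl22 itself had 119.6, 102, 104 and 115 CPM in resmetirom livers, against 101, 95.1, 112 and 85.6 CPM in control livers, which overlapped (log2 fold change 0.17, edgeR adjusted p = 0.444).

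Rps27l, a p53 target in human cells, stood at 198% ± 12.3 of Rps27 in resmetirom livers and 251% ± 26.4 in control livers (SD, n = 4 each), with every resmetirom library below every control library (exact permutation p = 0.0286, adjusted p = 0.0715). Rps27l had 153, 118, 147 and 143 CPM in resmetirom livers, against 129, 116, 152 and 107 CPM in control livers, and was not called. Rps27 is listed at 345 bases and Rps27l at 502. With length offsets their log2 fold changes were -0.11 for Rps27l and 0.12 for Rps27, against 0.15 for Rps27l and 0.47 for Rps27 without them. Rpl36al stood at 91.0% ± 11.04 of Rpl36a in resmetirom livers and 113% ± 8.66 in control livers (exact permutation p = 0.0571, adjusted p = 0.0952). Rpl36al had 91.1, 75.4, 96.4 and 88.9 CPM in resmetirom livers, against 82.5, 71.3, 83.2 and 78.5 CPM in control livers, with overlapping groups.

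Rpl7l1, a nucleolar relative of Rpl7, had 60.3, 68.7, 76.3 and 73.4 CPM in resmetirom livers, against 64.6, 65.8, 52.5 and 58.9 CPM in control livers. Its ratio to Rpl7 was 7.61% ± 1.002 in resmetirom livers and 8.33% ± 1.38 in control livers (exact permutation p = 0.457). Rps4l stood at 1.79% ± 0.422 of Rps4x in resmetirom livers and 2.30% ± 0.791 in control livers (exact permutation p = 0.343). Neither ratio differed by more than its spread. With 1 library left out, the permutation p of Rpl22l1 over Rpl22 was 0.0571 without any 1 control library, and that of Rps27l over Rps27 was 0.0571 without any 1 resmetirom library. Groups that do not overlap cannot come to overlap when a library is left out, and fewer libraries allow fewer splits. These p-values therefore do not measure how robust the 2 ratios are.

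**Figure D5:**
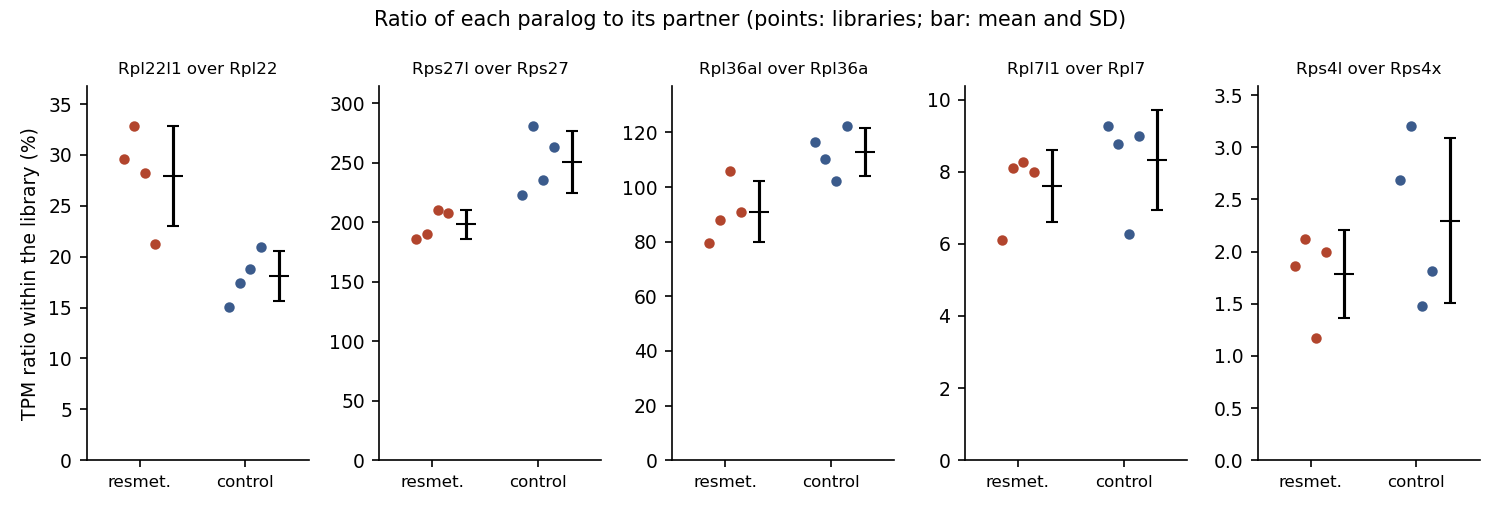
TPM of each paralog as a percentage of its partner's TPM in the same library (vertical axes, from 0), resmetirom left of control, with bars for the mean and SD. Rpl22l1 over Rpl22 is higher in all 4 resmetirom libraries than in any control library, and Rps27l over Rps27 is lower in all 4.

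The 7 members that were not tested had few or no counts. Rpl10l, Rpl27rt and Rpl3l had 0 counts in all 8 libraries, where 3 counts would correspond to 0.0206 CPM. Rpl3l is the striated muscle relative of Rpl3, and Rpl10l a testis relative of Rpl10. Rpl39l, another testis paralog, had 2 counts, Rpl35rt 21, Rps23rg1 32 and Rps27rt 79 in all libraries together. Rps27rt had 1.24, 1.10, 0.266 and 0.271 CPM in resmetirom livers, against 0.465, 0.435, 0.363 and 0.247 CPM in control livers, which overlapped. By symbol they are relatives of abundant members, and reads shared with those could not be told apart.

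The symbol rule leaves out some genes of ribosome-bound proteins. Fau, whose product carries Rps30, had a log2 fold change of 0.31 and the scaffold protein Rack1 0.11, and neither was called. Of 54 tested ribosome assembly genes 0 were called in either direction (5 higher and 0 lower at an unadjusted p under 0.05), and their median was 0.10. Nob1, an endonuclease of small subunit maturation, had the smallest p of that list at a log2 fold change of 0.66 (edgeR adjusted p = 0.110). The nucleolar proteins Npm1, Ncl and Fbl had log2 fold changes of 0.08, -0.07 and -0.01. Of 15 genes for RNA polymerase I, which transcribes rRNA, or for its transcription factors, 1 rose. The largest subunit, Polr1a, had 17.01, 21.4, 20.97 and 20.7 CPM in resmetirom livers, against 14.1, 12.4, 10.99 and 14.8 CPM in control livers. Those groups did not overlap (log2 fold change 0.61, SE 0.13, edgeR adjusted p = 0.0193). The Polr1a call was lost with library sizes alone (log2 fold change 0.29, adjusted p = 0.148), and its mean TPM was 4.69 ± 0.453 in resmetirom livers and 4.78 ± 1.41 in control livers, with overlapping groups.

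None of 17 genes listed under translation elongation was called (4 higher and 0 lower at an unadjusted p under 0.05, median 0.12). The 4 include Naca and Tpt1, and the list holds others that, like them, are not elongation factors, such as Pabpc1 and Etf1. Nor was any of 34 initiation factor genes called (2 higher and 0 lower at that limit, median 0.06). Naca and Eif1 had the smallest p in these lists, at log2 fold changes of 0.28 and 0.25. DESeq2 called 2 genes of the elongation list higher and 0 initiation factor genes. Eef1a1 and Eef2, the main elongation factors, whose mRNAs also carry the TOP motif, had log2 fold changes of 0.12 and 0.18. Among 19 regulators of mTORC1 and TOP mRNAs, 1 rose: Ddit4, an inhibitor of mTORC1, had 12.2, 6.10, 9.52 and 15.2 CPM in resmetirom livers, against 3.72, 2.66, 5.81 and 2.42 CPM in control livers. The lowest resmetirom library lay just above the highest control library (log2 fold change 1.55, SE 0.33, edgeR adjusted p = 0.0222), and the call was lost without any 1 of control 1, control 2, control 4, resmetirom 1 and resmetirom 4. Larp1 had a log2 fold change of 0.32 (edgeR adjusted p = 0.0717), and Eif4ebp1, an mTORC1 target that restrains initiation, -0.14. Myc, a transcription factor that drives ribosome production, had -0.64 (edgeR adjusted p = 0.437), and 0 of the 11 tested genes of MYC and p53 surveillance were called (0 higher and 1 lower, Trp53 at -0.31, at an unadjusted p under 0.05).

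Against 2 other families of housekeeping complexes, the 78 mitochondrial ribosomal protein genes had a median log2 fold change of 0.06 with 1 called higher (Mrpl15, 0.40, edgeR adjusted p = 0.0374), and the 38 tested proteasome subunit genes a median of 0.11 with 0 called. Of the mitochondrial ribosomal protein genes, 0 were called higher without any 1 of control 2, control 3, control 4, resmetirom 2 and resmetirom 4. With library sizes alone 0 were called higher and 12 lower, at a median of -0.25, and on log2(TPM + 1) 0 were called higher and 41 lower, at a median of -0.44. Of the proteasome subunit genes, 2 were called lower with library sizes alone, at a median of -0.19, and 24 on log2(TPM + 1), at a median of -0.41. With length offsets the medians were 0.098 for the members, 0.064 for proteasome subunit genes and -0.036 for mitochondrial ribosomal protein genes. In that fit the ribosome assembly and elongation lists lay above the members, at 0.136 and 0.105, and the initiation list below, at 0.063. The members' higher median over these lists thus depended on the scale. No test of the difference between these families was made.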

How the data were processed

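The authors deposited 1 table with whole-number counts and TPM per gene for 8 libraries, per the file headers. Per the file headers, the authors' table adds group mean TPM (signal values with a mean of 0 set to 0.001, as the values show), their log2 fold change, p-values and false discovery rates, from a tool that the sources used here do not name. Tools in the submitters' processing notes, in no stated role, are HISAT2 2.1.0, Bowtie2 2.2.8, StringTie 1.3.1, fastp 0.18.0, edgeR, DESeq2 and RSEM, with build mm10. Sequencing ran on 2 kinds of instrument, per the labels' protocols, and which library ran on which is not stated. Of 22013 genes, 5994 had no counts, and 0 per-sample columns were unmatched.

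The count test was that of edgeR 4.0.16 under R 4.3.3 (filterByExpr, TMM, robust dispersion, quasi-likelihood test, Benjamini-Hochberg, threshold 0.05), with DESeq2 1.42.0 and limma 3.58.1 as alternatives. SEs were derived from the fold change and the F statistic. TPM were also tested with limma on log2 scales with pseudocounts of 1 and 0.1. Gene lengths are those that counts and TPM imply together. For single-transcript genes they matched GENCODE M21 within 1% for 97.8% to 98.4% of 506 genes, and M21 held 99.2% of the identifiers. The length offsets are lowess trends (span 0.5, 3 iterations) of each library on log2 length. Libraries of 1 group differed beyond counting error, with a chi-square per degree of freedom of 13.2 or more, so none was counted as a repeat.

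The members, lists, tests and the naming rule were chosen with earlier results of these data known. Values per library were given for the 6 largest and 6 smallest fold changes, every called member, the 5 highest mean TPM, Rplp0, Rplp1, Rplp2, Rpsa, Rpl5, Rpl11 and the tested paralogs. In the other lists up to 4 called genes were named, or else the gene with the smallest p, with a fixed panel of 8 genes (Eef1a1, Eef2, Larp1, Eif4ebp1, Myc, Npm1, Ncl and Fbl). In simulated counts of this comparison (12115 genes tested), the test found 2% of genes with a 1.25-fold change, 18% with 1.5-fold, 68% with 2-fold and 92% with 4-fold, and 10 of its 100 calls were false. The result of 1 gene in these lists is not reported here.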

Additional observations from a re-analysis of the deposited data

Results flagged for a closer look

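Within groups of 4, a library was singled out where its gap to the nearest other exceeded Dixon's 95% critical share of the group's range, and chance does this in about 1 of 20 groups. Of 76 groups examined, 9 met it. Control 3 accounted for 7 of them on the high or low side. Ribosomal protein genes took 1.68% of its counts, against 1.40% to 1.44% in the other control libraries, 1.75% without Mup genes, against 1.49% to 1.52%, and 3.50% of its TPM, against 2.84% to 2.95%. Rpl5 had 350 CPM there, against 309 to 316 in the other control libraries, Rplp1 had 145 CPM, against 111 to 116, and Rps14 had 270 CPM, against 224 to 229.7. The TPM ratio of Rpl7l1 to Rpl7 was 6.28% in control 3, against 8.77% to 9.26%.

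In the resmetirom group, Rps4l had 5.72 CPM in resmetirom 3, against 9.87 to 10.5 in the others. The ratio of Rpl7l1 to Rpl7 was 6.12% in resmetirom 1, against 7.98% to 8.26%. The 3 shares rest on the same counts and are not separate measurements.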

How the results depend on the processing

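Upper-quartile or RLE factors, TMM without Mup genes or without the 20 most abundant genes, DESeq2, limma-voom, no filter, a filter at 1 CPM in 4 samples, no robust estimation and every omission of 1 library kept the members' median log2 fold change above 0, with 0.213 to 0.335 over the omissions. The count of members called higher was 0 with library sizes alone, on both TPM scales and with length offsets, 1 with library sizes without Mup genes, 2 without robust estimation, 3 with upper-quartile factors and 13 with DESeq2 (3.85% of all genes higher), and 1 to 9 over the omissions, with 0 lower. Of all genes, 1.92% were called higher with library sizes without Mup genes, 2.44% without robust estimation, 2.71% with upper-quartile factors, 1.97% with the replicate block below and 1.47% to 2.54% over the omissions. It was 1 without each of control 2, control 4, resmetirom 1 and resmetirom 4, 2 without control 1, 3 without resmetirom 3 and 9 without control 3. On both TPM scales 1 member (Rpl5) was called lower. The members' median was -0.0186 with library sizes alone, -0.23 on both TPM scales and 0.10 with length offsets. Over all genes, 151 were called higher and 1961 lower with library sizes alone, 127 and 4635 on log2(TPM + 1), 128 and 4593 on log2(TPM + 0.1), 523 and 387 with DESeq2, and 444 lower with library sizes without Mup genes. Over the omissions these counts were 182 to 313 higher and 149 to 238 lower. Library sizes without Mup genes, length offsets and the omissions for paralog ratios were chosen after seeing the data. The cause of these shifts was not tested, other than by their construction: library sizes and TPM fix each library's total.

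A replicate block gave 3 called members (Rpl22l1, Rpl39 and Rpl41), with 240 genes higher and 166 lower. The numbers mark no shared animal or day in the labels, and deviations of same-numbered libraries correlated at -0.33, 0.18, -0.19 and -0.06. Whether same-numbered libraries share anything beyond the number is not known from these values. Of 4 resmetirom libraries, 1 (resmetirom 2) correlated best with the control of its own number.

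Of the ribosome assembly genes, 4 were called lower with library sizes alone and 14 on both TPM scales, and their median was -0.20 with library sizes alone, -0.34 on log2(TPM + 1), -0.39 on log2(TPM + 0.1) and -0.0118 with library sizes without Mup genes. Of the elongation list, 2 genes were called lower with library sizes alone, 6 on both TPM scales and 2 higher with DESeq2. Its medians were -0.20 with library sizes alone, -0.38 on log2(TPM + 1) and -0.38 on log2(TPM + 0.1). Of the initiation genes, 3 were called lower with library sizes alone and 21 on both TPM scales, with medians of -0.24 with library sizes alone, -0.44 on log2(TPM + 1), -0.45 on log2(TPM + 0.1) and -0.0528 with library sizes without Mup genes. Of the mTORC1 and TOP regulators, 2 were called higher with upper-quartile factors and with DESeq2, 8 lower with library sizes alone and 10 lower on both TPM scales, with medians of -0.36 with library sizes alone, -0.50 on log2(TPM + 1) and -0.55 on log2(TPM + 0.1). The 1 mitochondrial ribosomal protein gene called was not called with a replicate block, where 0 were. Over the omissions, 0 to 1 assembly genes and 0 to 1 mTORC1 and TOP regulators were called higher.

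Several named members changed sign without being called. On both TPM scales the log2 values were -0.42 for Rpl10 and Rps6, -0.41 for Rpl4, Rpl5 and Rps23, -0.40 (and -0.41) for Rpl14, -0.36 for Rps2, -0.35 for Rps3a1 and Rpl36al, -0.34 for Rps27l, -0.33 (and -0.34) for Rpl7l1, -0.30 for Rplp0, -0.28 for Rpsa, -0.27 for Rpl11, -0.24 for Rpl23a, -0.17 for Rplp1 and Rplp2, -0.15 for Rps14, -0.0446 (and -0.0448) for Rpl34 and -0.0345 (and -0.0347) for Rpl36a, of which Rpl5 was called and Rpl34 and Rpl36a lost their call. With library sizes alone they were -0.21 for Rpl4 and Rps6, -0.20 for Rpl10 and Rps23, -0.19 for Rpl14, -0.16 for Rpl5 and Rps2, -0.15 for Rpl36al, Rps27l and Rps3a1, -0.11 for Rpl7l1, -0.0898 for Rplp0, -0.0809 for Rpsa, -0.0457 for Rpl11 and -0.0268 for Rpl23a. With library sizes without Mup genes they were -0.00509 for Rpl10, -0.00304 for Rpl14, -0.016 for Rpl4, -0.0162 for Rps23 and -0.0249 for Rps6. With length offsets they were -0.0566 for Rpl10, -0.10 for Rpl36al, -0.0267 for Rps23, -0.11 for Rps27l and -0.0495 for Rps6. Rps4l had 0.13 without control 2 and 0.07 without resmetirom 3.

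Counts per library give the shares a counting error far below the spread between libraries. Folds near the members' median were recovered rarely in the simulation, as given with the methods. Its changed genes were drawn from all genes with a mean of at least 1 CPM. The members varied less between libraries (median SD 0.154, against 0.242 over tested genes with counts in every library), so the recovery for members was not measured.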
